A study of Mus musculus with 8 samples.

Results

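Expression was described for 7 genes that encode surface or secreted markers of stromal progenitor cells: Pi16, Clec3b, Ly6a, Ly6c1, Ly6e, Thy1 and Cd248. They were picked out by gene symbol, from a list drawn up with earlier results of these data known, and all 7 were found among the 22520 genes measured by RNA sequencing in 8 mouse libraries. The labels call every library a mix of "microvesicular" cells of the heart, liver and lung, taken from C57BL/6 mice at postnatal day 14, and give 4 wild-type (WT) libraries and 4 libraries with LRP1 knocked out (LRP1 KO). By the methods of the study, the knockout mice were LRP1 f/f; Cdh5-CreER+/-, with a tamoxifen-inducible Cre recombinase driven by the promoter of Cdh5, the gene of an endothelial junction protein. The controls were LRP1 f/f; Cdh5-CreER-/- littermates, so the floxed alleles of Lrp1 were present in both groups and Cre in the knockout alone. Cells were picked with beads that carried an antibody to PECAM-1, an endothelial surface protein. LRP1 is a large endocytic receptor of the LDL receptor family, and the comparison asked which transcripts differ when it is deleted under an endothelial promoter. No label says that the libraries of a group came from separate animals, so the p-values measure only the spread between these libraries, which may be technical.

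PI16 and CLEC3B are known as markers of adventitial fibroblasts, the cells around vessels that are held to include progenitors of other fibroblasts. LY6A, also called SCA-1, and THY1, also called CD90, have long been used in mouse to sort mesenchymal and other progenitor cells, and CD248, also called endosialin, is carried by fibroblasts and pericytes of growing tissue. LY6A, LY6C1, LY6E and THY1 are small proteins held in the membrane by a glycosylphosphatidylinositol (GPI) anchor, CD248 crosses the membrane, and CLEC3B, also called tetranectin, is secreted. LY6A and LY6C1 are made by endothelial cells as well as by stromal cells, so these genes do not mark 1 cell type.

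Values are in FPKM, mapped fragments per kilobase of transcript relative to the size of the library. The unit is per length, so that the levels of different genes can be compared. They had been made equal in distribution across the libraries (sums from 503571 to 504112), which removes the sequencing depth from them. The deletion was seen in the data: Lrp1 was at 103 to 140.4 FPKM in the WT libraries and at 2.79 to 7.72 FPKM in those of LRP1 KO, or 3.99% of its WT mean, a log2 difference of -4.45 with an SE of 0.23 (limma, adjusted p = 8.89e-05). The labelled source was checked against marker genes. Of 6 mesothelial markers all were detected above 1 FPKM, with summed levels of 2269 to 2632 FPKM in WT, and the 15 fibroblast markers summed to between 3509 and 4873 FPKM. The 18 endothelial markers summed to only 172 to 188 FPKM in WT, with Pecam1 at 7.89 FPKM and Cdh5 at 9.59 FPKM on average. In 3 of the LRP1 KO libraries the endothelial sum was 395 to 625 FPKM, whereas in LRP1 KO library 4 it was 180 FPKM, within the range of WT. The endothelial sum was thus below the fibroblast and mesothelial sums in every library, and LRP1 KO library 4 stood apart from its group. Lrp1 was therefore low in LRP1 KO libraries whose fibroblast and mesothelial markers exceeded the endothelial ones. The cells in which Lrp1 was lost were not tested.

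The members differ in how far their reads can be told from those of related genes, which bears on every value of Ly6a and Ly6c1. In the GENCODE M21 annotation of GRCm38, the assembly that mm10 names, Ly6e (chr15:74955051-74959905, plus strand), Ly6a (chr15:74994877-74998031, minus strand) and Ly6c1 (chr15:75044018-75048830, minus strand) lie in 1 cluster on chromosome 15. Ly6a and Ly6c1 share a coding stretch of 48 bases near their 3′ ends, at coding positions 337 to 384 of 402 in Ly6a and 328 to 375 of 393 in Ly6c1. It is shown in capitals, with 10 flanking bases on each side. A read that lies wholly inside it fits both genes, but the 50-base stretches counted below are longer than it.

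Ly6a: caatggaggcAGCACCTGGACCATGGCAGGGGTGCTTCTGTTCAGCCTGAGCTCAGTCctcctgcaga
Ly6c1: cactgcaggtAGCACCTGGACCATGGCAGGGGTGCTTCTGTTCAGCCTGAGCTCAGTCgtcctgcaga

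Ly6c1 shared a longer stretch with Ly6c2, a neighbour expressed by monocytes. At coding positions 66 to 253 of 393 the 188 bases in capitals are the same in Ly6c1 and in Ly6c2, and the Ly6c1 copy is given here.

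Ly6c1: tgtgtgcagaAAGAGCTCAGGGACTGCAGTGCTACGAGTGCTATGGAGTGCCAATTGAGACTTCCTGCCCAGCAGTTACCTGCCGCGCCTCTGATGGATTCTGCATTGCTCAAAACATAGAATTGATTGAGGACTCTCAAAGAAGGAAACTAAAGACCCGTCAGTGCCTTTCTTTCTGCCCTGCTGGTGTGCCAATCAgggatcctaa

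Of all 50-base stretches of its longest coding transcript, 36.7% in Ly6c1 and 10.04% in Ly6a also occurred in a transcript of another gene. The partners of Ly6c1 were Ly6c2 (31.7% of stretches) and Ly6a (5.03%), and those of Ly6a were Ly6c1 (4.42%), Ly6i (3.42%), I830127L07Rik (2.21%) and Ly6c2 (0.331%). No such stretch was shared by Ly6e, Thy1, Cd248, Clec3b or Pi16, and the longest coding match of Ly6e to Ly6a or Ly6c1 was 9 bases. The levels of Ly6a and Ly6c1 are thus uncertain to the extent that the authors' counting divided shared reads between them and their relatives. Ly6c2 itself was listed at 0.480 to 1.46 FPKM over the 8 libraries, far below Ly6c1.

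Thy1 (ENSMUSG00000032011, chr9:44043384-44048579, plus strand), which encodes the GPI-anchored glycoprotein CD90 of fibroblasts, mesenchymal stem cells and T lymphocytes, was lower in LRP1 KO. WT libraries 1 to 4 had 145, 105, 125 and 157 FPKM of Thy1, while LRP1 KO libraries 1 to 4 had 77.9, 93.7, 94.2 and 101. Every LRP1 KO library lay below every WT library. The means were 133 ± 23.0 FPKM (SD, n = 4) in WT and 91.7 ± 9.76 FPKM (SD, n = 4) in LRP1 KO, which is 69.0% of the WT mean. On the scale of log2(FPKM + 1) Thy1 fell by 0.52, with an SE of 0.13 and a 95% interval from -0.81 to -0.24 (limma with Benjamini-Hochberg adjustment over all tested genes, adjusted p = 0.0297). The exact permutation test over the libraries gave p = 0.0286, which is the smallest that 4 against 4 allows. In bulk samples, fewer cells that express Thy1 and less Thy1 RNA per cell cannot be told apart. Without LRP1 KO library 4, the difference was -0.57 (adjusted p = 0.0164), and without WT library 2 it was -0.63 (adjusted p = 0.0208). The call was lost when any 1 of WT libraries 1, 3 or 4 or LRP1 KO libraries 1, 2 or 3 was left out, with differences from -0.55 to -0.44 and adjusted p from 0.0535 to 0.0811, and also with no filter on low values (adjusted p = 0.0603).

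Marker genes of several cell types also differed between the groups, in different directions. The summed level of the 6 mesothelial markers, which include Msln and Upk3b, was 1977 to 2219 FPKM in LRP1 KO and did not overlap with WT (exact permutation p = 0.0286). Msln (mean of 1177 FPKM against 985 in LRP1 KO) and Upk3b (418 against 284 FPKM) fell (limma, adjusted p = 0.0471 and 0.0109), whereas the other 4 markers did not pass the test. Of the 15 fibroblast markers, Gsn (log2 difference -0.64), Pdgfra (-0.96) and Dpt (-2.01) fell, Fbln2 (0.65) and Postn (0.98) rose and 10 were not called. Their estimates were below 0 in 13 of 15, with a median of -0.32, while the summed level in LRP1 KO, 3220 to 4534 FPKM, overlapped with WT. Of 8 tested mural cell markers 4 rose, Acta2, Tagln, Des and Cnn1, and the sums of the list were 671 to 837 FPKM in WT against 1040.4 to 1627 in LRP1 KO. The T lymphocyte markers, another possible source of Thy1 RNA, summed to 0.535 to 0.869 FPKM in WT and 1.51 to 2.34 FPKM in LRP1 KO, and Cd3e, Cd3g and Cd8a were listed at 0 in all 8 libraries. Most of that difference was Il7r, a cytokine receptor gene, with means of 0.200 FPKM in WT and 1.27 in LRP1 KO. It was the only one of the 10 tested, and it passed the filter on low values only through the LRP1 KO libraries, so its call is given no weight here, while Lck was at 0.371 and 0.346 FPKM. The part of the cells behind these markers in the difference of Thy1 was not tested.

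**Figure D1:**
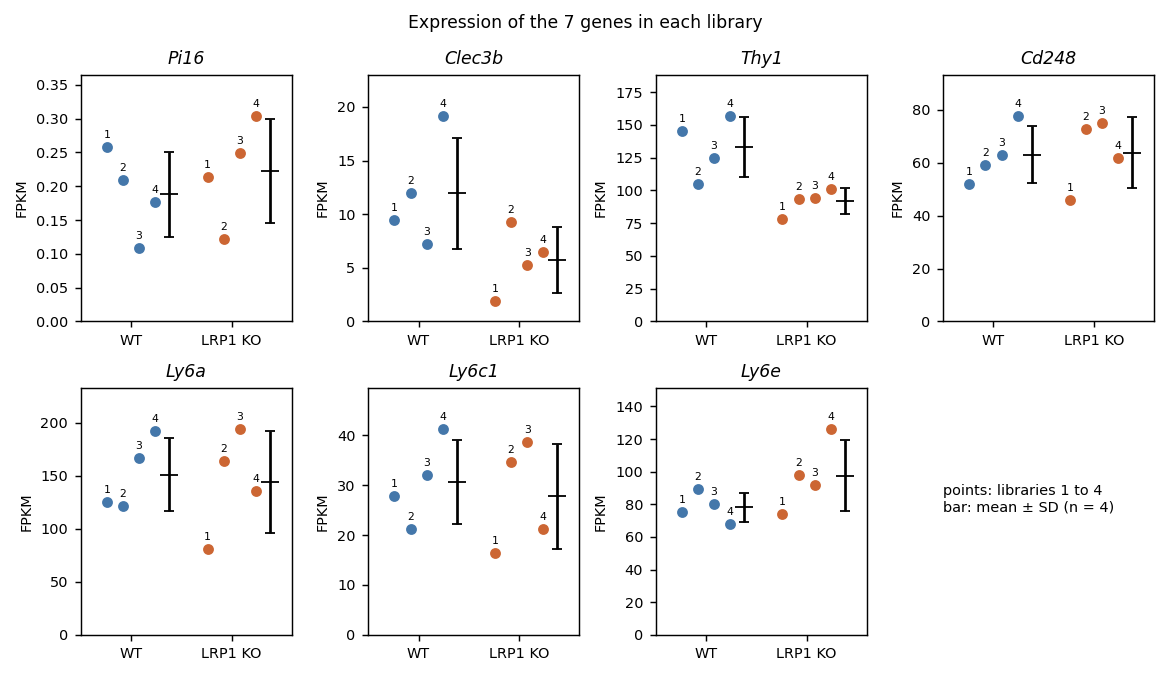
Level of each of the 7 genes in FPKM, with a linear axis from 0 for each gene, in the 4 WT (blue) and 4 LRP1 KO (orange) libraries, which are numbered; bars give the mean ± SD (n = 4). Thy1 is the member whose groups do not overlap (105 to 157 against 77.9 to 101 FPKM), and Pi16 lies below 1 FPKM in every library.

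Cd248 (ENSMUSG00000056481, chr19:5068078-5070682, plus strand), a transmembrane C-type lectin of fibroblasts and pericytes, was at nearly the same mean level in the 2 groups. The WT libraries had 52.0, 59.2, 63.1 and 77.8 FPKM of Cd248, and those of LRP1 KO had 45.8, 72.8, 75.1 and 61.7, in the same order of library numbers. The LRP1 KO libraries reached below the lowest WT library and did not pass the highest. The log2 difference was 0.01, with a 95% interval from -0.36 to 0.38 (limma, adjusted p = 0.979). Thus Thy1 and Cd248, both stromal surface markers, gave different estimates. The ratio of Thy1 to Cd248 within a library was 2.79, 1.77, 1.97 and 2.02 in WT and 1.70, 1.29, 1.25 and 1.64 in LRP1 KO, with no overlap between groups. The exact permutation test of this ratio gave p = 0.0286, or 0.143 after Benjamini-Hochberg adjustment over the 5 ratios that were computed, which were chosen after the values had been seen.

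Clec3b (ENSMUSG00000025784, chr9:123150946-123157432, plus strand), which encodes the secreted plasminogen-binding lectin tetranectin, had the widest spread among the members. WT libraries 1 to 4 had 9.48, 12.0, 7.24 and 19.2 FPKM of Clec3b, while LRP1 KO libraries 1 to 4 had 1.92, 9.32, 5.22 and 6.52. LRP1 KO libraries 1, 3 and 4 were below the lowest WT library, and LRP1 KO library 2 was inside the range of WT. The mean in LRP1 KO, 5.74 ± 3.07 FPKM (SD, n = 4), was 48.0% of the WT mean of 12.0 ± 5.19 FPKM (SD, n = 4). The log2 difference of -1.0, with an SE of 0.38 and a 95% interval from -1.86 to -0.14, did not pass the test across all genes (limma, adjusted p = 0.104), and the exact permutation p was 0.0571. It was the largest estimate among the members and the least precise, since the median SE over all tested genes was 0.0880. Leaving out single libraries gave values from -1.25 to -0.64, the last of these without LRP1 KO library 1 (adjusted p = 0.209).

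Pi16 (ENSMUSG00000024011, chr17:29317680-29330593, plus strand), the gene of peptidase inhibitor 16, was close to 0. The WT libraries had 0.258, 0.210, 0.108 and 0.177 FPKM of Pi16, those of LRP1 KO had 0.214, 0.122, 0.249 and 0.304, and the groups overlapped. Its values are below the level of 1 FPKM needed for the test, so it is the 1 member without a result in the main fit, and the exact permutation test gave p = 0.514. An antisense gene, AC162182.1, overlaps exons of Pi16 on the opposite strand, and reads of such a pair cannot be told apart without strand. This widely used marker of adventitial progenitors was therefore below 1 FPKM in every library, as were the means of Ebf2, Has1, Efhd1, Creb5 and Gli1 (0.0161 to 0.518 FPKM in WT) among other genes listed for such cells, whereas Cd34 and Dpp4 stood at 104 and 8.50 FPKM in WT.

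Ly6a (ENSMUSG00000075602), the gene of SCA-1, was the most abundant member in both groups. WT libraries 1 to 4 had 125, 121, 167 and 192 FPKM of Ly6a, while LRP1 KO libraries 1 to 4 had 80.9, 164, 194 and 136. In WT its mean of 151 FPKM was above that of 95.6% of tested genes. The LRP1 KO libraries held both the lowest and the highest value of the 8. The log2 difference was -0.11, with a 95% interval from -0.69 to 0.46 (limma, adjusted p = 0.783). Without LRP1 KO library 1, the lowest, the estimate was 0.14, and without WT library 4 it was 0.01, so no direction can be given.

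Ly6c1 (ENSMUSG00000079018), which encodes a surface antigen of monocytes and of endothelial cells, had levels of 27.8, 21.2, 32.0 and 41.3 FPKM in WT libraries 1 to 4. In LRP1 KO libraries 1 to 4 it had 16.4, 34.6, 38.7 and 21.3 FPKM. As for Ly6a, LRP1 KO library 1 was the lowest of all, and the groups overlapped widely. The log2 difference was -0.18, with a 95% interval from -0.80 to 0.45 (limma, adjusted p = 0.685), and 0.04 without LRP1 KO library 1. Although Ly6a varied 2.40-fold and Ly6c1 2.51-fold over the 8 libraries, the ratio of Ly6a to Ly6c1 stayed between 4.49 and 6.39, a range of 1.42-fold. The ratio did not differ between the groups (5.02 ± 0.557 in WT and 5.27 ± 0.755 in LRP1 KO, SD, n = 4 each) beyond their spread (exact permutation p = 0.629). Ly6a and Ly6c1 thus varied together from library to library. They also share the 48 coding bases printed above, and the part of shared reads in this pattern was not tested.

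**Figure D2:**
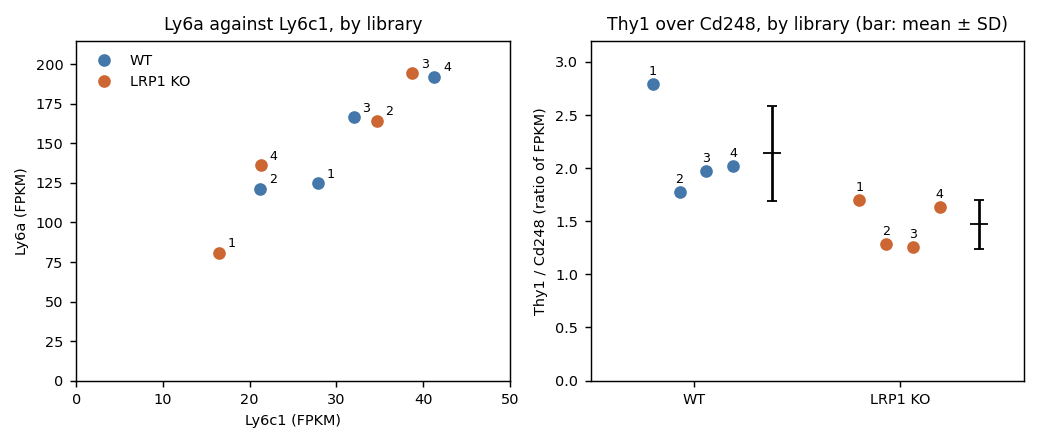
Left, the FPKM of Ly6a (y axis) against that of Ly6c1 (x axis), with 1 numbered point per library. Right, the ratio of Thy1 to Cd248 in each library, with the mean ± SD. The points at the left lie close to 1 line through 0, with a ratio of Ly6a to Ly6c1 of 4.49 to 6.39, and the ratio of Thy1 to Cd248 lies at 1.77 to 2.79 in WT and at 1.25 to 1.70 in LRP1 KO.

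The levels of macrophage and monocyte markers were higher in LRP1 KO, with sums of 41.8 to 82.6 FPKM in WT and 209 to 530 FPKM in LRP1 KO over 11 genes in the table, of which 8 of 9 tested rose. Of that list, Mrc1 passed the filter on low values only through LRP1 KO (means of 0.399 FPKM in WT and 3.68 in LRP1 KO). The call of Mrc1 is given no weight here. Ly6c1 and Ly6c2 were not called, and how they differ from that list was not tested. Ly6c2 had a mean of 1.07 FPKM in WT against 0.825 in LRP1 KO (log2 difference -0.20, limma adjusted p = 0.468). The 6 pan-leukocyte markers summed to 2.47 to 4.95 FPKM in WT and to between 16.7 and 28.6 in LRP1 KO. The part of these cells in the values of Ly6a and Ly6c1 was not tested.

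A stretch of RefSeq sequence upstream of Ly6c1 is printed because Ly6 genes are often described as induced by interferon. RefSeq promoter windows (GRCm38.p6, 250 bases before to 50 after the gene's start) matched 2 of the 7 members, Ly6c1 and Pi16. They were searched on both strands for an interferon response core (GAAANNGAA), a STAT site (TTCNNNGAA) and a TATA box (TATAAA), which do not overlap each other here. In the window chr15:75048788-75049087 of Ly6c1, printed 5′ to 3′ on the minus strand, the letters in capitals are the only match, a TATA box.

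Ly6c1: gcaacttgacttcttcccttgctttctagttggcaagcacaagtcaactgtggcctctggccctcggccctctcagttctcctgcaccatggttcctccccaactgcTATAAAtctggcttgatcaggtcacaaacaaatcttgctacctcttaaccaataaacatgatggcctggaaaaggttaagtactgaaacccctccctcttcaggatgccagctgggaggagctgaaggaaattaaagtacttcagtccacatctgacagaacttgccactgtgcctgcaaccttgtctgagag

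The other Ly6c1 window (chr15:75048614-75048913) and the Pi16 window (chr17:29318632-29318931) start from RefSeq start sites that lie inside the GENCODE genes given above, and they held none of the 3 motifs. Among all 32851 windows, 8.56% held the interferon response core, 8.30% the STAT site and 13.6% the TATA box. The match is a description of letters and not a binding site.

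Ly6e (ENSMUSG00000022587), a GPI-anchored protein that is induced by interferon in many cells, had the highest estimate of the members. WT libraries 1 to 4 had 75.1, 89.2, 80.4 and 68.1 FPKM of Ly6e, while LRP1 KO libraries 1 to 4 had 73.8, 97.8, 92.0 and 126. LRP1 KO libraries 2, 3 and 4 were above the highest WT library, and LRP1 KO library 1 was inside the range of WT. The log2 difference of 0.29, with an SE of 0.15 and a 95% interval from -0.04 to 0.63, did not pass the test (limma, adjusted p = 0.191), and the exact permutation p was 0.143. Without LRP1 KO library 1 the estimate was 0.42 (adjusted p = 0.0921), and without LRP1 KO library 4 it was 0.16 (adjusted p = 0.327). Of 22 tested genes of the interferon response, 20 rose and none fell, with a median log2 difference of 0.87 against -0.01 over all tested genes. They included Bst2, the GPI-anchored antiviral protein tetherin (169 and 317 FPKM in WT and LRP1 KO, log2 difference 0.90, adjusted p = 0.00131), and Isg15 (25.2 and 107 FPKM, 2.04, adjusted p = 0.000357). Their summed level was 421 to 479 FPKM in WT and 762 to 1084 FPKM in LRP1 KO, with no overlap. Among the 20, Cmpk2 passed the filter on low values only through LRP1 KO (means of 0.493 FPKM in WT and 1.44 in LRP1 KO). The call of Cmpk2 is given no weight here. The estimate of Ly6e was thus smaller than the median of that list, and the difference between Ly6e and the list was not tested.

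The order of the members by mean level was Ly6a, Thy1, Ly6e, Cd248, Ly6c1, Clec3b and Pi16 in WT. In WT the ranges of Ly6a and Thy1 overlapped, as did those of Ly6e and Cd248, and the other neighbours in the order were separate. In LRP1 KO the order was Ly6a, Ly6e, Thy1, Cd248, Ly6c1, Clec3b and Pi16, with Ly6a overlapping Ly6e and Ly6e overlapping Thy1. Thus Thy1 was above Ly6e in 4 of 4 WT libraries, while Ly6e was above Thy1 in 2 of 4 LRP1 KO libraries. Ly6a, Thy1, Ly6e and Cd248 were at 45.8 FPKM or more in every library, whereas the median tested gene was at 11.7 FPKM in WT.

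Of the 6 members tested, 1 was called (Thy1, lower) and 5 were not. Over all 11389 tested genes, 13.6% were called, 7.31% lower and 6.27% higher, so 1 of 6 is near the share of all genes. The same holds for groups that do not overlap, found in 1 of the 6 members and in 19.6% of all genes (10.7% lower and 8.84% higher in LRP1 KO). At an unadjusted p under 0.05 there were 2 members, Thy1 and Clec3b, where 33.7% of all genes passed. No member was called with a difference of at least 2-fold, as 1.62% of all genes were. The median log2 difference was -0.15 over the 6 members and -0.01 over all tested genes, with 4 of the 6 estimates below 0 and 51.9% of all estimates below 0. As a set, the progenitor and LY6 markers did not stand apart from the other genes by these counts.

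**Figure D3:**
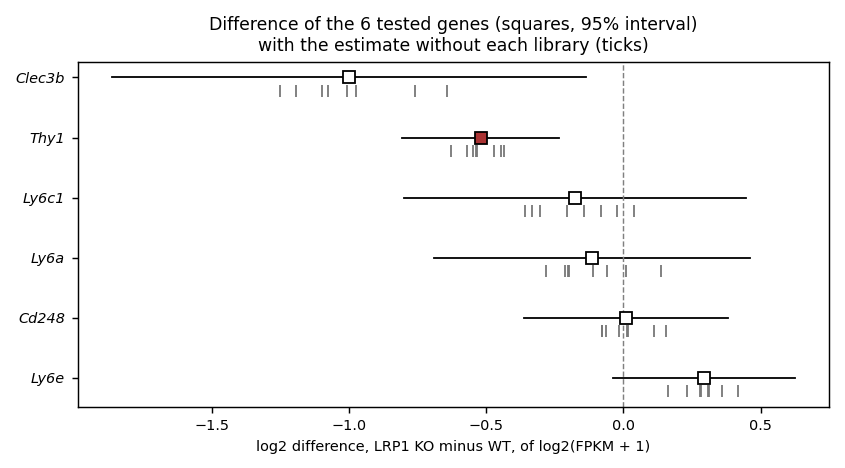
Log2 difference, LRP1 KO minus WT, of log2(FPKM + 1) for the 6 tested members, as squares (filled where the adjusted p is under 0.05) with 95% intervals from the limma fit, and as ticks the estimates with each library left out. The interval lies below 0 for Thy1 (-0.81 to -0.24) and Clec3b (-1.86 to -0.14), of which only Thy1 passed the adjusted test, and it includes 0 for Ly6a, Ly6c1, Ly6e and Cd248.

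Other genes of adventitial and progenitor fibroblasts moved in different directions. Of 28 genes listed without the members, 21 were tested, of which 3 rose, 5 fell and 13 were not called, with a median log2 difference of 0.08. Among those that fell were Igfbp6, a binding protein of insulin-like growth factors (516 FPKM in WT against 341 in LRP1 KO, log2 difference -0.58), Igfbp5 (-0.78), Pdgfra, the PDGF receptor of fibroblasts (-0.96), Scara5, a ferritin receptor (-1.29), and Dpt, the matrix protein dermatopontin (-2.01). Those that rose were Anxa3 (205 and 283 FPKM, 0.44), Fstl1 (160 and 210.3 FPKM, 0.40) and Wnt2 (3.27 and 8.62 FPKM, 1.24). Among abundant genes of the list, the matrix protein Efemp1 (200.4 and 238 FPKM, log2 difference 0.18, adjusted p = 0.601), Cd34 (104 and 119.6 FPKM, 0.20, adjusted p = 0.215) and Smpd3 (88.9 and 92.6 FPKM, 0.08, adjusted p = 0.770) were not called by limma. Likewise Dpp4 (8.50 and 7.20 FPKM, -0.21, adjusted p = 0.153) was not called. The summed level of the list was 1443 to 1707 FPKM in WT and 1416 to 1785 FPKM in LRP1 KO, with overlap. Pdgfra in LRP1 KO library 4 (37.7 FPKM) was within the WT range of 37.4 to 50.9 FPKM, whereas LRP1 KO libraries 1, 2 and 3 were at 14.2, 23.2 and 18.0 FPKM.

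Relatives of the members by protein family were also examined. In the LY6/uPAR family, whose proteins share the 3-finger fold, 5 of 37 listed genes were tested, of which limma called 0 after adjustment and 2 (Plaur and Cd59a) had an unadjusted p under 0.05. Plaur, the urokinase receptor, came nearest, with 40.9 FPKM in WT against 53.7 in LRP1 KO (log2 difference 0.40, adjusted p = 0.0839) and no overlap between groups, and the others were the complement inhibitor Cd59a (0.44), Ly6c2 (-0.20), the lipoprotein lipase carrier Gpihbp1 (-0.07) and Lynx1 (0.02). Among lectins related to Cd248 and Clec3b, Thbd (thrombomodulin, 49.7 and 70.1 FPKM, 0.49) and Cd93 (1.53 and 5.75 FPKM, 1.37), both found on endothelial cells, rose and the growth factor Clec11a (1.56 and 0.839 FPKM, -0.49) fell. Relatives of Pi16 in the CAP family gave 2 genes that rose of 3 tested, Glipr2 (0.91) and Glipr1 (0.83), with Pi15 at 0.33 (adjusted p = 0.128). Of the 15 tested endothelial markers, 1, Eng, rose and the other 14 were not called, with estimates above 0 in all 15 and a median of 0.70. In LRP1 KO library 4, where the endothelial sum was in the range of WT, Thbd (65.9 FPKM) and Cd93 (3.29 FPKM) were above every WT library, whereas another endothelial lectin, Clec14a (0.323 FPKM, below the level for the test), was within the WT range of 0.285 to 0.456 FPKM.

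**Figure D4:**
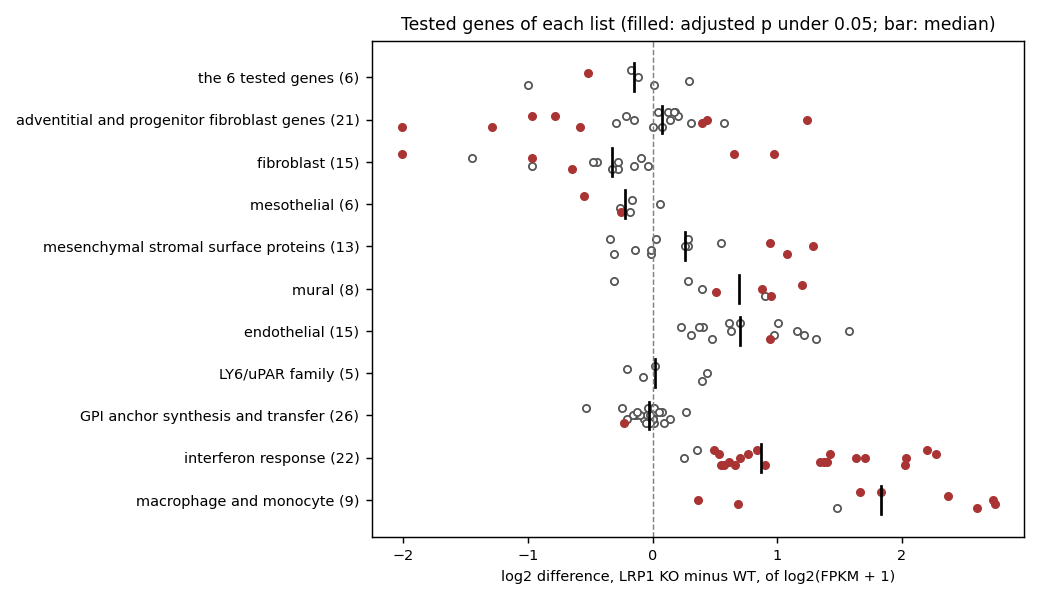
Log2 difference, LRP1 KO minus WT, of each tested gene in the gene lists, with 1 row per list, filled points for genes with an adjusted p under 0.05 and a bar at the median. The interferon response lies to the right of 0 (median 0.87), the adventitial and progenitor genes spread to both sides (median 0.08) and the genes of GPI anchor synthesis range from -0.53 to 0.27 (median -0.03).

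Partners and the anchor of the members were taken as the last groups. Of 7 tested binding partners, Lgals3bp (98.8 and 167 FPKM, log2 difference 0.74) and the leukocyte integrin Itgb2 (1.34) rose. Among the other 5, the matrix protein Fn1 (0.09) and the integrin subunits Itgav and Itgb5 (-0.01 each) that pair as a receptor had estimates near 0. Itgb3, another partner of Itgav, had an estimate of 0.48 (limma, adjusted p = 0.137), and Mmrn2, an endothelial matrix ligand of CD248, was at 1.20 without passing the test (limma, adjusted p = 0.0596). Of 13 other surface proteins of mesenchymal stromal cells, 3 rose, Eng (0.94), Cd44 (1.08) and Mcam (1.29), and none fell. Eng is also counted among the endothelial markers above. LRP1 KO library 4 had the lowest value of its group for Eng (63.2 FPKM), Cd44 (14.7 FPKM) and Mcam (6.82 FPKM). The most abundant of the 13, the tetraspanin gene Cd81, was at 545 FPKM in WT and 543 in LRP1 KO. The integrin subunit gene Itgb1 was at 404 and 490 FPKM (log2 difference 0.28, limma adjusted p = 0.0723). The enzymes that make and attach the GPI anchor, on which LY6A, LY6C1, LY6E and THY1 depend, were nearly all uncalled: of 26 tested only Pigu passed, with a log2 difference of -0.23, and the median was -0.03. The estimate farthest from 0 was that of Pgap3, which acts on the lipid of the anchor, with 3.14 FPKM in WT against 1.91 in LRP1 KO (log2 difference -0.53, limma adjusted p = 0.0525) and no overlap between groups. The groups did not overlap, with LRP1 KO lower, for Pgap3, Pigu, Pigp, Pigy, Gpaa1 and Pigb, 6 of the 26. Over all tested genes this share was 10.7%, and the difference from it was not tested. Dpm2 and Dpm3, the most abundant of the list, had differences of 0.01 and -0.13.

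**Figure D5:**
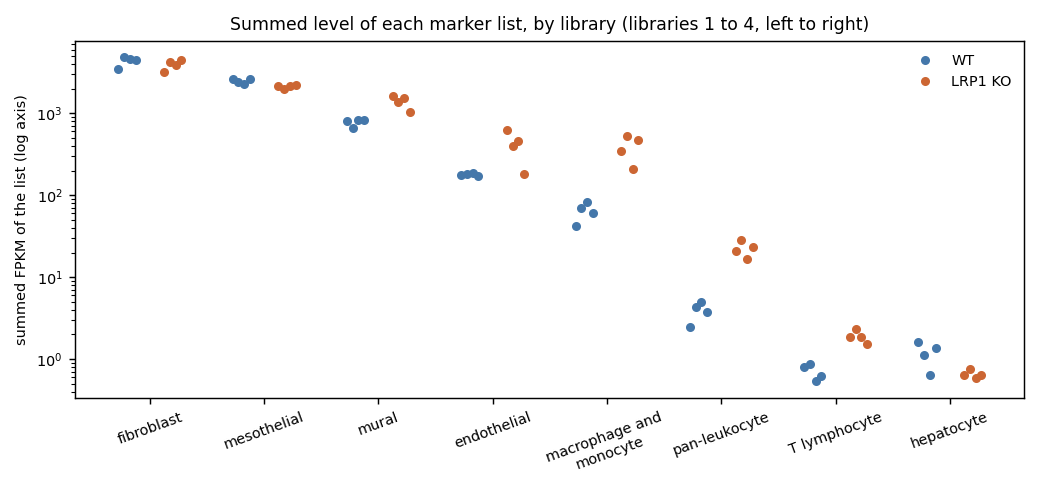
Summed FPKM of the markers of each cell type (log axis) in the 4 WT (blue) and 4 LRP1 KO (orange) libraries, with 1 point per library in the order of the numbers. Mesothelial sums are lower in every LRP1 KO library (1977 to 2219 against 2269 to 2632 FPKM), macrophage sums are higher (209 to 530 against 41.8 to 82.6 FPKM), and the endothelial sum of LRP1 KO library 4 lies among the WT libraries at 180 FPKM.

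The 3 genes whose pattern over the 8 libraries was most like each member were found by the root mean square (RMS) of the difference in centred log2(FPKM + 1). This measure includes the difference between the groups and is given as a description. Nearest to Thy1 were Tcf23 (0.0904), Mtus2 (0.0907) and the gap junction gene Gja1 (0.0983), against a spread of Thy1 itself of 0.319. For Clec3b, with a spread of 0.767, they were 1500015O10Rik (0.348), Scara5 (0.371) and Gm15698 (0.390). Cd248 was followed by Naalad2 (0.128), Zfp781 (0.135) and Gfpt2 (0.136). Among the members the nearest to Cd248 was Ly6a (0.180), although Cd248 shares no 50-base stretch with another gene. Ly6e, with a spread of 0.262, was followed by Gbp6 (0.0778), H2-T23 (0.0875) and Psmb9 (0.110), which are genes of the interferon response and of antigen presentation. For Ly6a, with a spread of 0.391, the 3 genes outside the members were Sepp1 (0.203), the microfibril gene Mfap5 (0.208) and Nov (0.215), while its nearest gene among the members was Ly6c1 (0.151). Ly6c1 had Ly6c2 (0.220), Sned1 (0.249) and Adcyap1r1 (0.252) as its nearest genes outside the members, and the first of these shares 31.7% of its 50-base stretches.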

How the data were processed

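RNA of 8 libraries (4 WT, 4 LRP1 KO, grouped by sample title) was sequenced by the authors. The deposited FPKM values were made by the authors, whose processing notes name TopHat2, Cufflinks and mm10 without versions. The study's methods describe STAR and featureCounts instead, and its results describe separate liver and heart with lung cells. The deposited table gives no unit: FPKM was inferred from the values, and they had been quantile normalized, a step not given in the sources used here. Depth is therefore unknown, and the 4 libraries per group set the precision.

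Values were analysed as log2(FPKM + 1), which understates changes of low genes. Genes of at least 1 FPKM in at least 4 libraries were kept (11389 of 22520). The groups were compared with limma 3.58.1 in R 4.3.3, with a variance trend and Benjamini-Hochberg adjustment over all tested genes, and a gene was called at an adjusted p under 0.05. "Rose" and "fell" are used for called genes. Single values were compared with exact two-sided permutation tests (Python 3.11.15, scipy 1.17.1) over all 70 splits. The fit was tested on simulated data with changes much larger than that of Thy1, so changes of that size were not examined. Alternatives were a pseudocount of 0.1, no filter, median-ratio rescaling, no variance trend, library weights, a replicate block and leaving out each library.

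Positions, transcripts and 50-base stretches came from GENCODE M21, in which 21740 of the 22520 identifiers were found, and promoters from RefSeq. By rule, the text names the members, Lrp1, up to 6 tested genes of highest mean level in a list and the 3 nearest genes of each member. Other genes (Pecam1, Dpp4, Pdgfra, Dpt, Igfbp5, Wnt2, Postn, Itgb2, Lck, Cd44, Mcam, Clec14a, Pigu and the other GPI genes whose groups do not overlap, the adventitial genes below 1 FPKM, the markers at 0 and the relatives that share sequence) were chosen after their values were seen, except Scara5, which is also among the nearest genes. Cmpk2 and Mrc1 were also chosen after their values were seen. Where a symbol occurred more than once, the row of higher mean was used. The members and lists were chosen with earlier results of these data known.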

Additional observations from a re-analysis of the deposited data

How the results depend on the processing

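The number of genes called, 1547, became 3003 with library weights, 1013 with the replicate block and 512 to 3021 when 1 library was left out. It was 3021 without LRP1 KO library 4, 850 and 512 without WT libraries 1 and 2, 919 and 1008 without WT libraries 3 and 4, and 566, 522 and 546 without LRP1 KO libraries 1, 2 and 3. The number of members called, 1, became 0 with no filter and was 0 to 1 when 1 library was left out. With 1 library left out, the log2 difference of Ly6a ran from -0.28 to 0.14, that of Ly6c1 from -0.36 to 0.038 and that of Cd248 from -0.077 to 0.16. The sign turned for Ly6a without LRP1 KO library 1 (0.14) or WT library 4 (0.0084), for Ly6c1 without LRP1 KO library 1 (0.038), and for Cd248 without LRP1 KO library 2 (-0.063) or 3 (-0.077) or WT library 1 (-0.077) or 2 (-0.017) and with library weights (-0.11). The cause was not tested. Thy1 kept its direction in all 14 alternatives, at -0.63 to -0.44 with adjusted p from 0.00813 to 0.0811, as did Clec3b and Ly6e, which were called in none. The labels give no source for the replicate numbers, and whether they pair the libraries is not settled: the deviations of same-numbered libraries correlated at 0.158, 0.141, 0.340 and -0.312, and 3 of 4 LRP1 KO libraries correlated best with their own number. With the block, Thy1 was still called (adjusted p = 0.0481). As the table used here holds no read counts, counting error was not computed, and where an interval includes 0 a difference was not detectable with 4 libraries per group.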
